A study of Zea mays with 36 samples.

Results

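The low-oil maize embryo at 25 days after pollination was set against the embryo of the same line at 20 days. The features described are those of the deposited expression table with at least 1 RPKM (reads of a feature scaled by its length and by the library total) in at least 3 of the 6 libraries of these ages. This left 22786 of 63340 features: 20874 with an annotated gene ID, 1734 known by a running number alone, 170 noncoding RNA IDs with the prefix ENSRNA, and 8 microRNA precursors. Of the features left out, 19418 had a value above 0 in at least 1 of the 6 libraries and 21136 were listed at 0 in all of them. The third-highest of a feature's 6 values decided its membership. It lay between 1 and 1.1 RPKM for 396 members and between 0.9 and 1 RPKM for 386 features left out, and the closest values on either side were 1.00009 and 0.999882 RPKM.

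The study compared a low-oil with a high-oil maize line at 6 embryo ages from 15 to 40 days, with 3 libraries per line and age. The low-oil 25-day group and the low-oil 20-day group each held 3 libraries of whole embryos, taken out of the endosperm after the kernels had soaked overnight. RNA with a poly(A) tail was sequenced. The high-oil libraries of 25 and 20 days, treated alike, served to test where the lines changed differently. Low oil content is represented by a single line, and the labels do not say whether replicates came from separate plants or ears. The p-values therefore measure the spread between replicate libraries, pooled over all 36 of the study, which may be partly technical.

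A maize embryo consists of an axis, which carries the shoot and root meristems, and the scutellum, a leaf-like organ that stores oil and globulin proteins. During seed filling, cell division and organ growth give way to the deposition of reserves. Late embryogenesis abundant proteins, which protect cells in the dry seed, come up under the control of abscisic acid and the regulator Viviparous1. The deposited table gives no gene names for its annotated IDs, and 0 of the 44146 IDs matched the reference table. Genes are therefore given by ID, no role is assigned to them, and the embryo identity of the tissue could not be checked against marker genes. Names and roles were at hand for the microRNA precursors.

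The 6 libraries held 46977524 to 61314705 reads on features, so that 1 RPKM on a feature of 1000 bases stood for 47 to 61.3 reads. The correlation of log2 values between libraries of the same age was 0.96 to 0.97 at 20 days. Replicates 1 and 2 of 25 days correlated at 0.971. Replicate 3 of 25 days stood apart, with 0.926 and 0.935 to the other libraries of its age. Its mean correlation to the 35-day low-oil libraries was 0.913, against 0.892 and 0.881 for replicates 1 and 2. Between the ages, correlations ran from 0.891 to 0.927. Several results that could rest on replicate 3 are given with and without it.

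Between 20 and 25 days, 654 features rose (2.87% of those tested) and 1088 fell (4.77%), in all 1742 (7.65%). The test was limma on log2(RPKM + 1) with Benjamini-Hochberg adjustment, and a feature was called at an adjusted p below 0.05 and a change of at least 1 log2 unit. Differences on this scale understate the change of low features. The adjusted p alone was passed by 1400 rises (6.14%) and 2795 falls (12.3%). Of the called features, 627 of the rises and 1034 of the falls had 3 values at 25 days that all lay beyond the 3 values at 20 days, a separation that 13.3% of all tested features showed upward and 22.8% downward. Without replicate 3 of 25 days, 613 rose and 992 fell, and 520 and 796 of these were among the calls made with it. The median log2 change of all tested features was -0.08. It was -0.01 after median-of-ratios scaling, which gave 716 rises and 870 falls, so the excess of falls was smaller there. In whole embryos, a fall in the number of cells of a type and a fall in RNA per cell cannot be told apart. Of the members, 216 passed the minimum through the 25-day libraries alone, and 114 of these were called rises. Another 195 passed through the 20-day libraries alone, and 87 of these were called falls.

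The rises reached further than the falls. The median called rise was 1.48 log2 units and the median called fall -1.3. A rise of at least 3 log2 units was seen for 54 features, of at least 4 for 17 and of at least 5 for 7. Only 2 features fell by at least 3 log2 units and 0 by at least 4. Without replicate 3 of 25 days, 65 features rose and 6 fell by at least 3 log2 units.

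**Figure D1:**
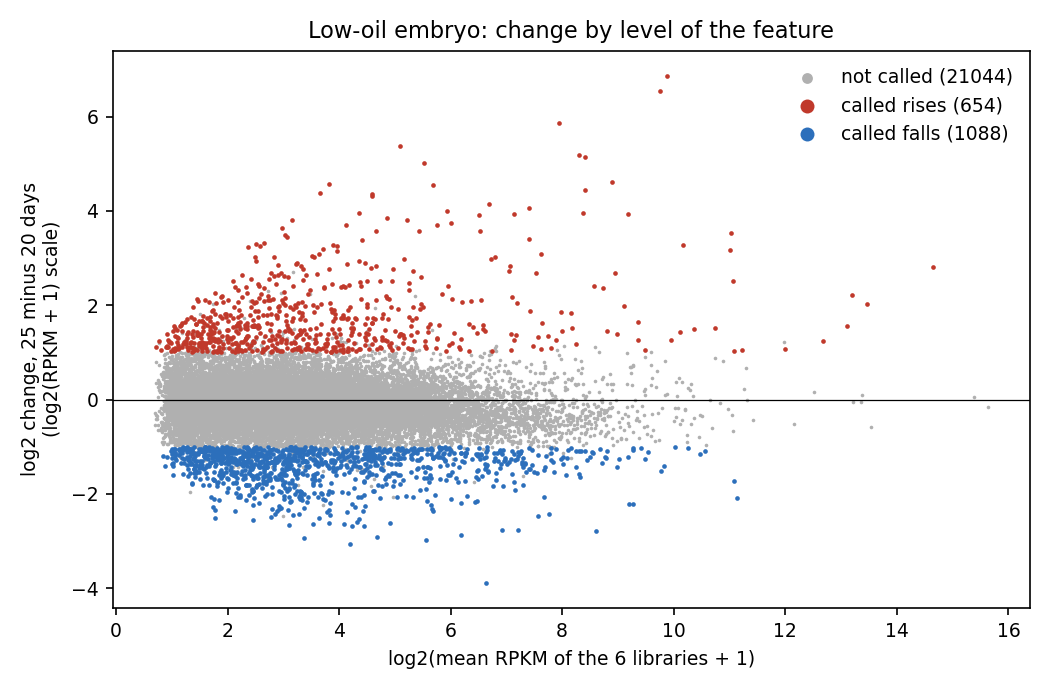
Log2 change between 25 and 20 days (vertical axis, log2(RPKM + 1) scale) against the level over the 6 libraries (horizontal axis) for the 22786 tested features, with the 654 called rises in red and the 1088 called falls in blue. The rises extend to 6.86 log2 units and the falls to -3.88.

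The largest log2 rise was that of the annotated gene Zm00001d003190. It had 3930, 1370 and 298 RPKM in the 25-day libraries, against 13.9, 6.76 and 7.92 RPKM in the 20-day libraries. All 25-day values lay far above the 20-day values, but they spread more than 10-fold among themselves, with replicate 3 the lowest. The mean was 1870 ± 1870 RPKM at 25 days and 9.51 ± 3.81 RPKM at 20 days (SD, n = 3 each), a log2 change of 6.86 (SE 0.56, limma adjusted p 2e-09). The log2 change was 7.84 without replicate 3 and 5.99 without replicate 1 of 25 days. With limma fitted to the compared groups only, its adjusted p was 0.0038. The gene stood at 436 ± 123 RPKM at 30 days, 1030 ± 547 RPKM at 35 days and 910 ± 453 RPKM at 40 days. These means lay below the 25-day mean, but replicate 1 decides that order for the last 2 ages, since the other 25-day libraries averaged 832 RPKM.

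Zm00001d007299 rose about as steeply with less spread. It had 1620, 1190 and 2320 RPKM at 25 days, against 21.3, 11.8 and 18.1 RPKM at 20 days, a 100-fold higher mean (log2 6.55, SE 0.63, limma adjusted p 3.2e-08). Its later means lay above the 25-day mean, with 3590 RPKM at 30 days, 7480 RPKM at 35 days and 9020 RPKM at 40 days.

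The largest log2 fall was that of Zm00001d029526. It had 6.96, 25.3 and 7.21 RPKM at 25 days, against 258, 128 and 163 RPKM at 20 days (log2 -3.88, SE 0.54, limma adjusted p 9.1e-06). The groups did not overlap, and replicate 2 was the highest of the 25-day libraries. Its mean was highest at 15 days, with 436 ± 111 RPKM (SD, n = 3), and lowest at 40 days, with 0.215 ± 0.231 RPKM. Zm00001d050948 had 1.7, 9.68 and 0.679 RPKM at 25 days, against 32.9, 20.4 and 38.2 RPKM at 20 days (log2 -3.07, SE 0.48, limma adjusted p 4.1e-05). Again replicate 2 was the highest at 25 days. Without replicate 3, the lowest, the log2 change of this gene was -2.51. With limma fitted to the compared groups only, its adjusted p was 0.021.

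In transcript amount, gains were larger than losses. Zm00001d034413 had 51000, 51700 and 32000 RPKM at 25 days, against 4840, 5610 and 8730 RPKM at 20 days. The mean was 7.02-fold higher at 25 days (log2 2.82, SE 0.39, limma adjusted p 8.5e-06). The lowest 25-day value and the highest 20-day value both belonged to replicate 3. The log2 change of this gene was 3.05 without replicate 3 of 25 days. Its share of all reads was 5.2%, 5.28% and 3.27% in the 25-day libraries and 0.495%, 0.573% and 0.891% in the 20-day libraries. At 15 days it stood at 208 ± 102 RPKM (SD, n = 3), and at 30 days at 54100 ± 3970 RPKM, so that most of the difference in RPKM between these ages lay between 20 and 25 days.

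Zm00001d029778 had 14900, 18300 and 20900 RPKM at 25 days, against 3790, 3560 and 6180 RPKM at 20 days (log2 2.03, SE 0.40, limma adjusted p 0.00063). It stayed near that level, with means of 13500, 14200 and 16700 RPKM at 30, 35 and 40 days. The gains that ranked next in mean RPKM belonged to a pair of annotated genes with consecutive ID numbers, which had 15500 and 13100 RPKM on average at 25 days, against 3330 and 4480 RPKM at 20 days.

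The largest loss in mean RPKM was far smaller. Zm00001d022421 had 846, 1100 and 649 RPKM at 25 days, against 3130, 4170 and 3520 RPKM at 20 days (log2 -2.08, SE 0.31, limma adjusted p 2.7e-05). It had stood at 5150 ± 1110 RPKM at 15 days (SD, n = 3) and reached 37.8 ± 8.76 RPKM at 40 days. Zm00001d032610 had 1080, 1310 and 683 RPKM at 25 days, against 3530, 3430 and 2900 RPKM at 20 days (log2 -1.73, SE 0.25, limma adjusted p 1.6e-05). This gene was higher at 20 days than at 15 days, where it averaged 2370 ± 461 RPKM, and reached 180 ± 56.7 RPKM at 40 days. In both genes replicate 3 was the lowest of the 25-day libraries, and the groups did not overlap. Without that library the log2 change was -1.89 for Zm00001d022421 and -1.46 for Zm00001d032610. None of the 8 genes above lost its call or changed direction under any alternative setting, each left-out library included.

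**Figure D2:**
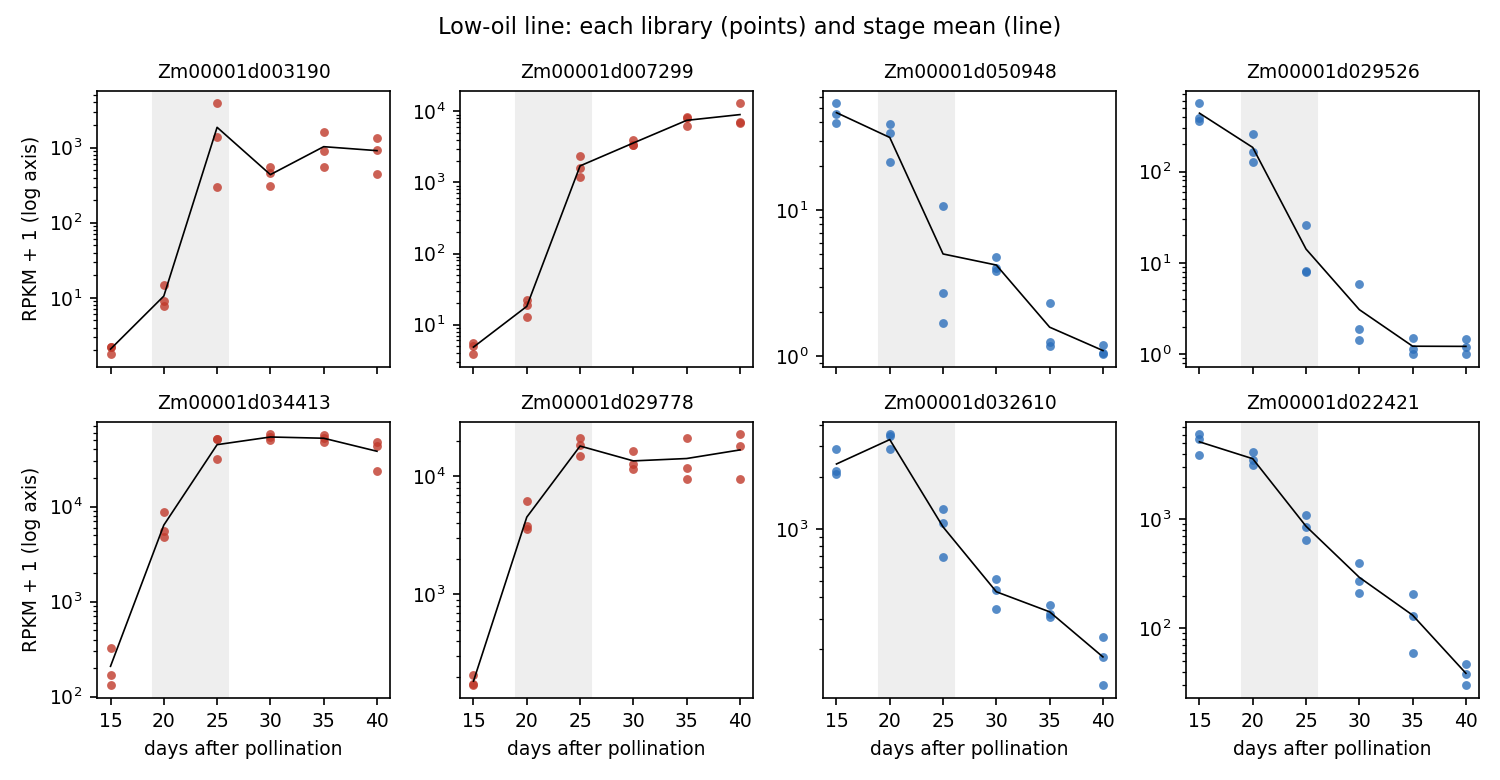
RPKM + 1 (vertical log axis) of the 8 genes over the 6 ages of the low-oil line, with each of the 3 libraries per age as a point, the stage mean as a line and the interval from 20 to 25 days shaded. Zm00001d003190 has its highest mean at 25 days with replicate 1 (3930 RPKM) and not without it, Zm00001d007299 has its highest mean at 40 days, and the 4 genes that fell between 20 and 25 days were lowest at 40 days.

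The called rises together took 15.7%, 14.7% and 13.4% of all reads in the 25-day libraries, against 3.16%, 2.98% and 3.89% in the 20-day libraries. The called falls took 3.29%, 3.72% and 2.76% at 25 days, against 8.84%, 8.76% and 7.81% at 20 days. These sums describe features chosen for their change and carry no test. At either age 80 features averaged 1000 RPKM or more, of which 19 rose and 11 fell. At 25 days 14 features averaged at least 5000 RPKM, against 9 at 20 days, while 62 at 25 days and 63 at 20 days averaged at least 1000 RPKM.

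The share of features called varied with level. Of 66 features that averaged 1000 RPKM or more over the 6 libraries, 15 rose (22.7%) and 6 fell (9.09%), and without replicate 3 of 25 days 13 rose and 6 fell. Between 100 and 1000 RPKM, 5.06% of 968 features rose and 10.6% fell, and between 10 and 100 RPKM, 2.44% of 8988 rose and 4.27% fell. Rises thus outnumbered falls among the most abundant features.

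Called genes were short. The RPKM values keep the length of each feature, because they are whole multiples of what a single read is worth. The implied length of the tested annotated genes had a median of 1629 bases (quartiles 1071 and 2392). It was 1086 bases for those that rose (quartiles 691 and 1626) and 1292 bases for those that fell (quartiles 867 and 1807), and without replicate 3 of 25 days 1147.5 and 1318 bases. Among annotated genes with a mean of at least 10 RPKM, 8.45% of the 485 under 500 bases rose and 10.7% fell, or 6.57% and 7.42% without that library. At 1000 to 2000 bases, 1.93% of 4405 genes rose and 5.77% fell, and at 4000 bases and above, 1.85% of 270 rose and 0.741% fell. The median SE of the log2 change also differed, with 0.31 in the shortest class and 0.15 in the longest, and its part in these shares was not tested.

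**Figure D3:**
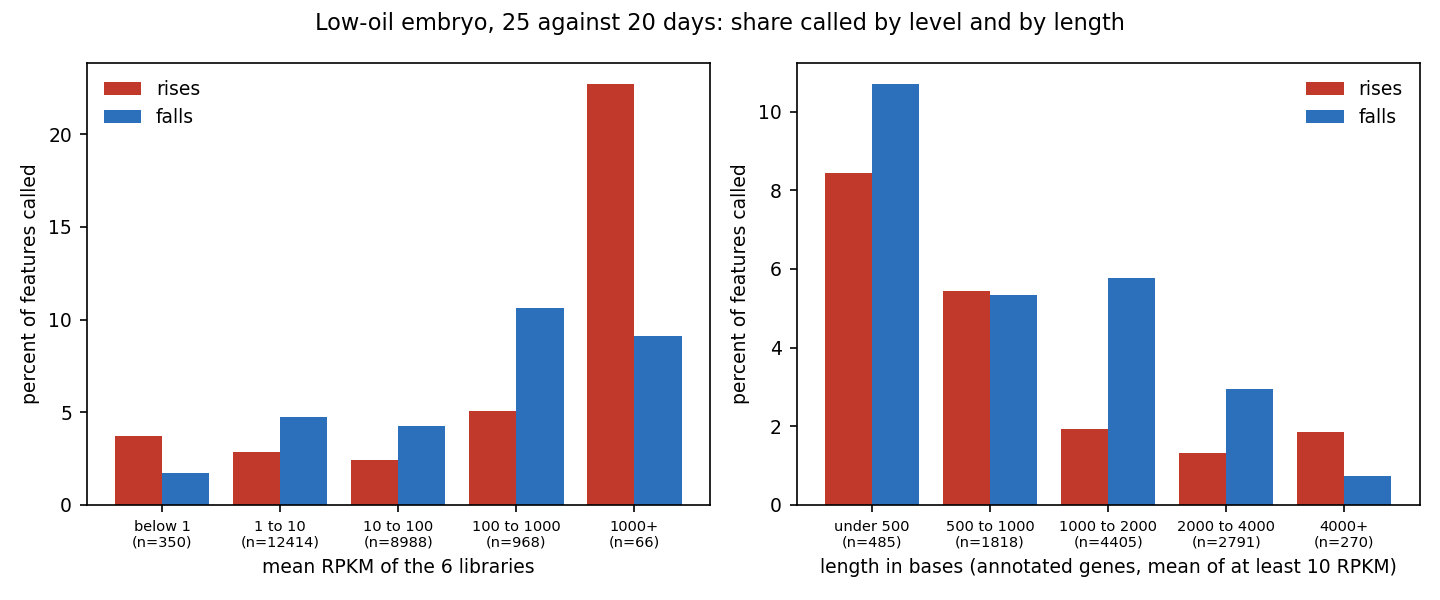
Percent of features called (bars from 0, rises red, falls blue) by mean RPKM of the 6 libraries (left, all 22786 tested features) and by length in bases (right, annotated genes with a mean of at least 10 RPKM), with the number of features under each class. Rises reach 22.7% at 1000 RPKM and above, and both directions are most frequent, at 8.45% and 10.7%, in genes under 500 bases.

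The balance of calls among features with a running number was not that of annotated genes, and it depended on the threshold. Of the 1734 tested, 79 rose (4.56%) and 56 fell (3.23%), whereas 572 annotated genes rose (2.74%) and 1029 fell (4.93%). By the adjusted p alone 112 running numbers rose and 115 fell, so that the excess of rises was absent there. The median log2 change was 0.01 for running numbers and -0.09 for annotated genes. With median-of-ratios scaling the counts were 77 rises and 41 falls for running numbers, and 636 and 827 for annotated genes. The classes differed in level and length, with medians of 2.55 RPKM and 771.5 bases for running numbers and 9.08 RPKM and 1629 bases for annotated genes. Within the band of 1 to 10 RPKM, 4.13% of 1403 running numbers rose and 3.49% fell, against 2.74% of 10864 annotated genes that rose and 4.94% that fell. In the high-oil line 39 running numbers rose and 90 fell over the same days, or 56 and 52 after median-of-ratios scaling. Without replicate 3 of low-oil 25 days, the low-oil counts of running numbers were 65 rises and 56 falls. The difference of this balance between the lines was not tested. Of the 170 ENSRNA features, 3 rose and 3 fell.

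MicroRNA precursors are the transcripts from which Dicer-like enzymes cut the small RNAs that silence target transcripts. Of 154 in the table, 20 had at least 1 read in these libraries and 8 passed the minimum. None of the 8 was called by limma in the low-oil line, 1 of them had an unadjusted p below 0.05, and limma-voom called 0. Over the same days 3 of the 8 were called rises in the high-oil line (2.52% of all tested features were). No difference between the lines was called for any of the 8. MIR168b, of the family that targets ARGONAUTE1 transcripts, was the most abundant. It had 15.2, 24.7 and 17.3 RPKM at 25 days, against 29.1, 19.2 and 24.4 RPKM at 20 days (log2 -0.34, 95% interval -1.27 to 0.59, limma adjusted p 0.66), and the groups overlapped. Over the whole course of the low-oil line its means were 2.47, 24.2, 19.1, 6.98, 4.62 and 5.74 RPKM, with the highest values at 20 and 25 days.

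Its family member MIR168a had 8.31, 8.54 and 11.9 RPKM at 25 days, against 2.46, 2.78 and 18.3 RPKM at 20 days (log2 0.73, SE 0.52, limma adjusted p 0.36). Replicate 3 of 20 days, with 99 reads against 12 and 14 in the others, lay above all 25-day libraries. Without it the log2 change was 1.54 (SE 0.48, limma adjusted p 0.028), which passed both thresholds. MIR156i, of the family that targets SPL transcription factor transcripts, depended on the same library. It had 0, 1.26 and 0 RPKM at 25 days, against 3.46, 2.64 and 0 RPKM at 20 days (log2 -0.95, limma adjusted p 0.16), and without replicate 3 of 20 days its log2 change was -1.62 (limma adjusted p 0.011). These values rest on 9 reads at 25 days and 34 at 20 days.

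The other precursors tested did not separate the ages of the low-oil line either. MIR166a, of the family that targets class III homeodomain-leucine zipper transcripts, had 1.38, 5.25 and 3.09 RPKM at 25 days, against 1.1, 1.06 and 2.89 RPKM at 20 days. MIR408b, of a family that targets transcripts of copper proteins, had 10.5, 4.36 and 2.04 RPKM at 25 days, against 4.49, 1.26 and 4.06 RPKM at 20 days. MIR319d, of the family that targets TCP transcription factor transcripts, averaged 1.14 ± 1.24 RPKM at 25 days and 1.62 ± 0.763 RPKM at 20 days (SD, n = 3 each). MIR156h averaged 1.72 ± 2.62 and MIR2118c 2.67 ± 0.509 RPKM at 25 days, against 2.35 ± 1.67 and 2.68 ± 0.898 RPKM at 20 days. The limma adjusted p of these 5 precursors was 0.41 or more. For MIR2118c, whose family triggers phased small RNAs, the 95% interval of the log2 change ran from -0.81 to 0.84.

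Neighbours by ID number of rising annotated genes also rose in a minority of pairs, though above the share of all tested annotated genes. In 565 pairs of a rising gene with a tested gene whose ID number was 1 higher or lower, the neighbour also rose in 70 (12.4%), against 2.74% of all tested annotated genes, and fell in 23 (4.07%). In 991 such pairs of a falling gene, the neighbour also fell in 66 (6.66%), against 4.93% of all, and rose in 23 (2.32%). A pair that moved together is counted from both of its genes, and no test goes with these shares. Values of near-identical copies, whose reads the authors' counting could have split, are uncertain.

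Over the whole course of the low-oil line, most called rises were low at 15 days and stayed high after 25 days. The median rising feature had stage means of 1.39, 2.78, 12.5, 15.5, 21.1 and 22 RPKM from 15 to 40 days. Of the 654 rises, 142 had their highest stage mean at 25 days (21.7%), 152 at 35 days (23.2%) and 289 at 40 days (44.2%). Of all tested features, 10.9%, 9.08% and 16.1% were highest at these ages. The rises were chosen for being higher at 25 than at 20 days, which favours a highest mean at 25 days. The median falling feature had 20.2, 12.8, 4.06, 2.94, 1.98 and 1.52 RPKM from 15 to 40 days. Of the 1088 falls, 717 were lowest at 40 days (65.9%, against 27.9% of all tested features). The values at 20 and 25 days are those the calls were made on. The 15-day and 40-day libraries entered the calls through the shared estimate of the spread and not through the means compared. From 15 to 40 days, 554 of the 654 rises also rose (84.7%, background 9.99%) and 3 fell, and 980 of the 1088 falls also fell (90.1%, background 24.9%) and 5 rose. These made up 24.3% of all features that rose and 17.3% of all that fell from 15 to 40 days. Without replicate 3 of 25 days, 499 of 613 rises (81.4%) and 833 of 992 falls (84%) did so.

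**Figure D4:**
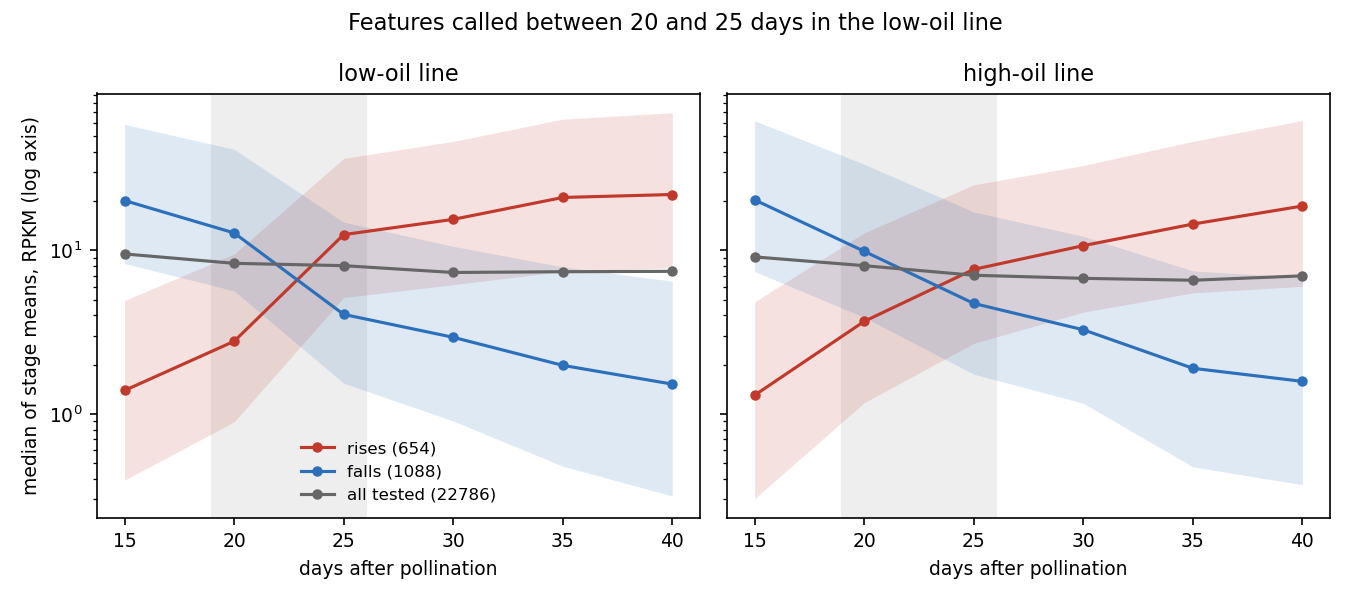
Median over features of the stage mean RPKM (vertical log axis, with bands from the first to the third quartile for rises and falls) by age in the low-oil line (left) and the high-oil line (right), for the 654 rises and 1088 falls called between 25 and 20 days in the low-oil line and for all 22786 tested features. In the low-oil line the median of the rises was 12.5 RPKM at 25 days, against 2.78 RPKM at 20 days, and in the high-oil line it was 7.66 and 3.68 RPKM.

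The high-oil line shares no library with the groups compared here, but the calls in both lines use the same estimate of the spread. A minority of these features was called there, while most changed in the same direction. By sign alone, 582 of the rises also rose in the high-oil line (32.2% of all tested features did) and 999 of the falls also fell (67.3% of all tested). Their median high-oil changes were 0.87 and -0.89 log2 units. The interaction of line and age, tested below, was called for 62 of the rises and 39 of the falls. Of the 654 rises in the low-oil line, 255 were also called rises in the high-oil line (39% of the low-oil and 44.4% of the high-oil list, background 2.52%), and 2 were called falls there. Of the 1088 falls, 461 were also called falls in the high-oil line (42.4% of the low-oil and 43% of the high-oil list, background 4.7%), and 0 were called rises. After median-of-ratios scaling, 330 features rose in both lines and 293 fell in both. Without replicate 3 of low-oil 25 days, 255 rose and 397 fell in both. Across all tested features the log2 changes of the lines correlated with r = 0.55, where features are not independent replicates.

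Whether the low-oil change itself differed from that of the high-oil line was tested as the interaction of line and age. By limma, 206 features were called (0.904%), of which 133 had a higher change in the low-oil line (0.584%) and 73 a lower one (0.32%). This split depended on the scaling. The median interaction over all features was 0.12 log2 units with the deposited values and -0.01 with median-of-ratios scaling, where 91 were higher and 121 lower, 87 and 70 of them among the calls on deposited values. Of the 133 with a higher change, 49 rose in the low-oil line with no call in the high-oil line. Another 28 fell in the high-oil line with no call in the low-oil line, 10 rose in both, and 2 rose in the low-oil and fell in the high-oil line. The other 44 were called in neither line. Of the 73 with a lower change, 39 fell in the low-oil line with no call in the high-oil line. Another 17 rose in the high-oil line with no call in the low-oil line, 1 rose in both, and 16 were called in neither.

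The number of called line differences was uncertain. It was 80 with limma-voom on the recovered reads. It was 156, 229 and 178 without replicates 1, 2 and 3 of low-oil 25 days, and 131, 107 and 292 without those of low-oil 20 days. It was 325, 93 and 114 without replicates 1, 2 and 3 of high-oil 20 days. Leaving out replicates 1, 2 and 3 of high-oil 25 days gave 93, 120 and 297.

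**Figure D5:**
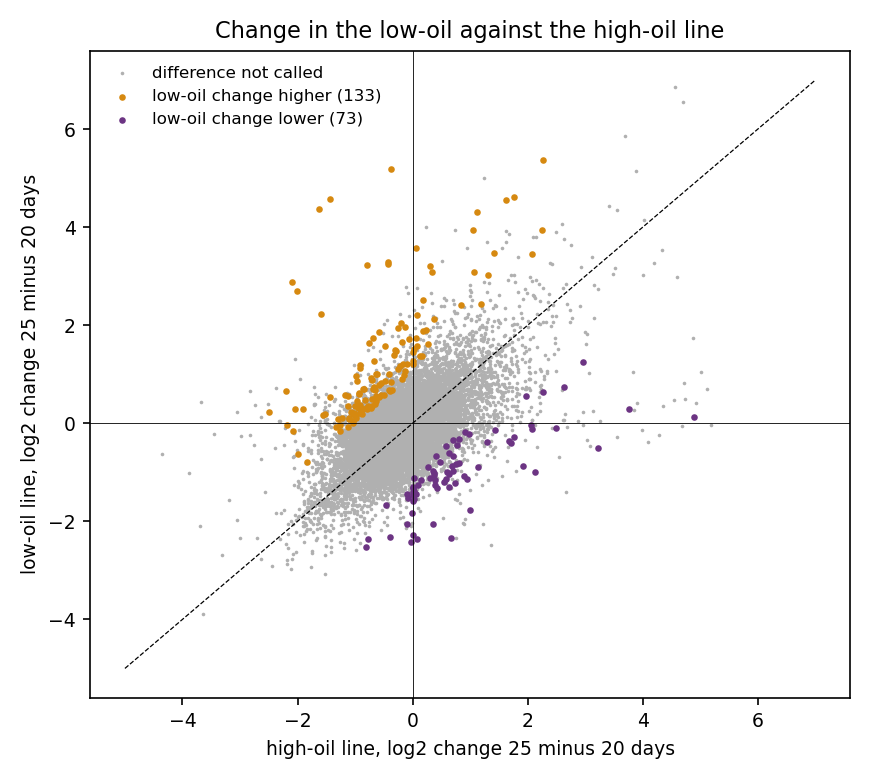
Log2 change between 25 and 20 days in the low-oil line (vertical axis) against the high-oil line (horizontal axis) for the 22786 tested features, with the 133 features of higher low-oil change in orange, the 73 of lower low-oil change in purple and the line of equal change dashed. The points farthest above the line of equal change are Novel13909, at 4.58 and -1.44, and Zm00001d023573, at 4.37 and -1.62.

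The largest line differences came from features that were nearly absent from whole libraries. The labels do not give the seed source of each library, and for these features a difference of source and a difference of age cannot be told apart. The running-number feature Novel13909 had 33.7, 31.4 and 13.2 RPKM in low-oil 25-day libraries, against 0.0621, 0.015 and 0.0912 RPKM in low-oil 20-day libraries. In the high-oil line it had 8.24, 8.67 and 0.0356 RPKM at 25 days, against 9.14, 14 and 11.2 RPKM at 20 days. The low-oil change was 4.58 log2 units and the interaction 6.02 (SE 1.07, limma adjusted p 0.005). The interaction was 4.95 (adjusted p 0.012) without replicate 3 of high-oil 25 days and 9.71 (adjusted p 0.015) with a pseudocount of 0.1. It was not switched on for the first time at 25 days, since the low-oil 15-day libraries had 12.6, 10.6 and 12.9 RPKM. Of all 36 libraries, 7 lay below 0.1 RPKM: the 3 of low-oil 20 days, replicate 3 of high-oil 25 days, replicate 3 of high-oil 30 days, and replicates 2 and 3 of high-oil 35 days.

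Zm00001d023573 was also near 0 in the low-oil 20-day libraries. It had 28.7, 29.5 and 11 RPKM in low-oil 25-day libraries, against 0.0348, 0.0337 and 0.141 RPKM in low-oil 20-day libraries. In the high-oil line it had 1.89, 2.53 and 0.0319 RPKM at 25 days, against 9.15, 4.18 and 4.81 RPKM at 20 days (interaction 5.99, SE 1.26, limma adjusted p 0.015). Its low-oil 15-day mean was 11 ± 4.54 RPKM (SD, n = 3). In replicate 3 of high-oil 35 days, where Novel13909 was listed at 0, it had 25.6 RPKM. With limma-voom on recovered reads the interaction was 12.04 for Novel13909 (adjusted p 0.13) and 11.71 for Zm00001d023573 (adjusted p 0.26), larger in size and not called.

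The features most like Novel13909 over the 36 libraries, by the correlation of log2 values, were Novel13907 (0.95), Zm00001d023573 (0.76) and Novel11835 (0.73), and the next was at 0.67. They were looked up after the values were seen. Novel13907, whose running number is close to that of Novel13909, had 8.62, 8.1 and 8.4 RPKM at low-oil 25 days and was listed at 0 in all 3 libraries of low-oil 20 days. It had 5.02, 8.63 and 7.72 RPKM at low-oil 15 days. Novel11835 had 35.9, 36.3 and 18.6 RPKM at low-oil 25 days, against 2.33, 2.93 and 4.14 RPKM at low-oil 20 days, and 19.6, 15.8 and 15.3 RPKM at low-oil 15 days. Novel13907 and Novel13909 were the only features of the table below 0.1 RPKM in all libraries of low-oil 20 days and at 1 RPKM or more in the other 15 low-oil libraries, and 0 features had such a gap at low-oil 25, 30, 35 or 40 days. At low-oil 15 days 7 features had such a gap.

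Of the features called lower in the low-oil line, Zm00001d020592 had the largest difference. It had 46, 33.6 and 39.9 RPKM in low-oil 25-day libraries, against 25.6, 17.9 and 99.1 RPKM in low-oil 20-day libraries (log2 0.13, limma adjusted p 0.93). In the high-oil line it had 287, 146 and 201 RPKM at 25 days, against 12.4, 4.67 and 3.32 RPKM at 20 days (log2 4.89, limma adjusted p 4.9e-05, interaction -4.76, adjusted p 0.024). Replicate 3 of low-oil 20 days was the highest of the 6 low-oil libraries of these ages. Replicate 1 of low-oil 30 days was higher, with 593 RPKM. Without replicate 3 of low-oil 20 days the interaction was -4.04 (limma adjusted p 0.052). The call was also lost without replicate 2 or 3 of high-oil 20 days or replicate 1 of high-oil 25 days (adjusted p 0.069, 0.079 and 0.077). Novel12680 had 2.83, 2.14 and 0.878 RPKM at low-oil 25 days, against 1.26, 1.03 and 13.1 RPKM at low-oil 20 days, where the same library was the highest. In the high-oil line it had 24.3, 8.86 and 11 RPKM at 25 days, against 1.59, 0.048 and 0.336 RPKM at 20 days. The interaction of Novel12680 was -3.74 (limma adjusted p 0.043), and -2.83 (adjusted p 0.088) without that library. Its call was also lost without replicate 1, 2 or 3 of low-oil 25 days (adjusted p 0.055, 0.056 and 0.11), replicate 2 or 3 of high-oil 20 days (0.12 and 0.1), or replicate 1 or 2 of high-oil 25 days (0.14 and 0.064). It was lost as well with the replicate block (0.05), in the fit of the compared groups only (0.075), without a filter (0.066) and with a pseudocount of 0.1 (0.054). With limma-voom the interaction was -5.01 for Zm00001d020592 (adjusted p 0.09) and -5.95 for Novel12680 (adjusted p 0.12), and neither was called.

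Features that were off at 20 days and clearly present at 25 days were few. The limits, chosen after the values were seen, were below 1 RPKM in all 20-day libraries and at least 10 RPKM in all 25-day libraries. Of the 22786 tested features, 7 met them, and 0 features showed the reverse. These 7 passed the minimum through the 25-day libraries alone, so their rise follows from the limits and is no separate result. Of these 7, 5 were annotated genes and 2 had a running number. All but Novel13909 and Zm00001d023573 also averaged below 1 RPKM at 15 days.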

How the data were processed

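The authors deposited 1 table of RPKM values with 1 column per library; 0 columns were left unused. FastQC, TopHat2, Cufflinks and the build B73 RefGen_v4 are listed per the submitters' processing notes, with no version or role stated. How reads were counted, and whether by strand, is not given in the sources used here. Reads of a feature and its antisense partner may therefore be mixed.

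Groups were taken from the labels. Whole reads were recovered from the RPKM steps for 100% of 51853 features in the 36 libraries (tolerance 0.0001 reads), which gave library totals and feature lengths. For the 20 microRNA precursors with a read, the implied length equalled that in the RefSeq table of assembly Zm-B73-REFERENCE-NAM-5.0 in 20 cases. This table tied 153 of 154 precursors and 0 annotated genes to names, so 23 of 24 gene lists and all 4 cell type marker lists could not be used.

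The main test was limma 3.58.1 in R 4.3.3 on log2(RPKM + 1) (pseudocount 1), with 1 mean per group over all 36 libraries, 24 residual degrees of freedom and a mean-variance trend. P-values were adjusted over the 22786 features. Named features were the 2 largest rises and 2 largest falls in log2 change and in mean RPKM among called features without overlap, and the 2 largest interactions each way. The members, lists and tests were chosen with earlier results of these data known. The test was tried on reads simulated for the comparison of 25 with 20 days (22786 features, 100 changed per fold size, all at 2 RPKM or more). It recovered 21% of 2-fold and 90% of 4-fold changes, with 11 false calls. Each simulated feature was drawn independently, and far fewer features were changed than were called in the data. No deviation of a whole library was simulated, so these rates need not hold for the data. Python 3.11.15 with numpy 2.4.6 and pandas 2.3.3 recovered the reads. The alternatives were other scalings, pseudocounts, filters and thresholds, fits restricted to the compared groups, a replicate block, limma-voom on recovered reads, and each library left out.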

Additional observations from a re-analysis of the deposited data

Results flagged for a closer look

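By the limma test of the interaction itself, the change between 20 and 25 days was called different between the low-oil and the high-oil line for 206 features. This number was uncertain, with 80 by limma-voom and 93 to 325 over 12 left-out libraries. The interaction, low-oil minus high-oil change on the log2 scale, was 6.02 for Novel13909, 5.99 for Zm00001d023573, -4.76 for Zm00001d020592 and -3.74 for Novel12680. Their limma adjusted p was 0.005, 0.015, 0.024 and 0.043. With limma-voom it was 0.13, 0.26, 0.09 and 0.12, and none of them was called. Groups of 3 libraries are too small to be searched for single outlying samples.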

How the results depend on the processing

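The counts of called features, rises and falls stayed within 1.5 times their values under quantile normalization, median-of-ratios scaling, no filter, a pseudocount of 0.1, the filter over all 36 libraries, a fit of the compared groups only, limma-voom (2049 calls) and each left-out library. With each of the 6 libraries left out, the called features numbered 1548 to 1880, the rises 596 to 698 and the falls 902 to 1223, and running-number features showed 65 to 78 rises and 45 to 59 falls. The adjusted p alone called 4195 features, 1400 rises and 2795 falls, with 112 rises and 115 falls among running numbers. A minimum of 5 RPKM left 15212 features to test, with 427 rises, and 35 rises and 18 falls among running numbers. The called line differences ranged from 93 to 325 over 12 left-out libraries and numbered 80 with limma-voom, and the cause was not tested.

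Libraries with the same replicate number did not deviate together, with correlations of -0.09, 0 and -0.1 between the ages. Whether the replicate numbers pair the samples cannot be told from 3 libraries per age, and the labels do not say. With the replicate block, 1740 features were called, 653 rises and 1087 falls, and 199 line differences. In 128 of 128 alternative values, the 8 named genes kept their direction and call. Features that are both low and short rest on the fewest reads, such as MIR156i with 9 at 25 days and 34 at 20 days. A true 2-fold change lies at or below the minimum of 1 log2 unit, so this threshold itself leaves most such changes uncalled.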
